A study of Homo sapiens with 13 samples.

Results

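The HOX genes were taken as every protein-coding gene whose identifier maps to HOXA, HOXB, HOXC or HOXD followed by a number, with antisense and other non-coding genes left out. There were 39 such genes among the 62703 genes of the deposited count tables: 11 in HOXA, 10 in HOXB, 9 in HOXC and 9 in HOXD. RNA-seq had been made from SKOV3 and OVCAR3, established human ovarian cancer cell lines, after changes to RSF1, a histone-binding protein of a chromatin remodelling complex. The SKOV3 groups, with 3 libraries each, overexpressed RSF1, overexpressed RSF1delUAB, which by its name is RSF1 without the region called UAB, or carried a control vector. The OVCAR3 groups, with 2 libraries each, expressed a UAB peptide or were the scramble control, and both were treated with doxycycline at 2000 ng/ml for 6 days. The labels give neither the vector and promoter nor whether a line is 1 clone, and they do not say whether the libraries of a group came from separate cultures, so p-values measure the spread between these libraries, which may be technical.

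HOX genes encode homeodomain transcription factors that give cells their position along the body axis. Within each cluster the genes lie in the order of their paralog number, and genes with low numbers act toward the head while those with high numbers act toward the tail. In the female reproductive tract, HOXA9, HOXA10, HOXA11 and HOXA13 pattern the embryonic duct into oviduct, uterus and lower tract. Clusters that a cell does not use are held silent by Polycomb complexes, one of which places ubiquitin on histone H2A, the mark that the UAB region of RSF1 is known to bind. Trithorax and menin complexes act to keep used clusters active, and TALE proteins (PBX, MEIS) bind DNA together with HOX proteins.

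In GRCh38 the HOXA genes lie on chromosome 7 up to 27200091, the HOXB genes on chromosome 17 from 48528526 to 48728750, the HOXC genes on chromosome 12 from 53938831 to 54056030 and the HOXD genes on chromosome 2 from 176092721 to 176190907. HOX clusters are known for promoters dense in CG dinucleotides, the kind of DNA on which Polycomb complexes gather. RefSeq promoter windows of 300 bases (250 before to 50 after the gene start, GRCh38.p14) were at hand for 20 of the 39 genes, in 27 windows. The HOX windows held a median of 22 CG dinucleotides, against 14 over all 35114 windows in the table. The letters TATAA, searched on both strands, occurred in 9 of the 27 HOX windows and in 20.4% of all windows. The 4 windows printed here belong to genes called in several of the comparisons below, and they run from few to many CG dinucleotides. HOXD13 (chr2:176092471-176092770, plus strand) and HOXD8 (chr2:176129455-176129754, plus strand) passed the test in both cell lines. HOXD4 (chr2:176151300-176151599, plus strand) lies in the same cluster, and HOXA13 (chr7:27200042-27200341, minus strand) is the HOXA paralog of HOXD13. Capitals mark CG dinucleotides, and each sequence runs 5′ to 3′ on the strand of its gene.
HOXD13: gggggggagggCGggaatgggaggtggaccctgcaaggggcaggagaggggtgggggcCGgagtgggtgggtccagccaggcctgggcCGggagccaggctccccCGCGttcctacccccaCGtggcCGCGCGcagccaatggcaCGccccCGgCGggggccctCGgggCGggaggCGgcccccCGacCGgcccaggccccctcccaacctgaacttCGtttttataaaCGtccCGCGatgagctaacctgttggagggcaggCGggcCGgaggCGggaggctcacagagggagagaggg
HOXD8: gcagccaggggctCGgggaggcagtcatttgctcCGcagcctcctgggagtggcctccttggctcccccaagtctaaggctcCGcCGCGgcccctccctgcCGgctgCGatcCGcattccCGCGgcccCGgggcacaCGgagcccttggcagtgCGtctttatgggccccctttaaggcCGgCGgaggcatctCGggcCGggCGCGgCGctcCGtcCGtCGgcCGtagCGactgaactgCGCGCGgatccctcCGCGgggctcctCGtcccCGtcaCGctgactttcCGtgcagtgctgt
HOXD4: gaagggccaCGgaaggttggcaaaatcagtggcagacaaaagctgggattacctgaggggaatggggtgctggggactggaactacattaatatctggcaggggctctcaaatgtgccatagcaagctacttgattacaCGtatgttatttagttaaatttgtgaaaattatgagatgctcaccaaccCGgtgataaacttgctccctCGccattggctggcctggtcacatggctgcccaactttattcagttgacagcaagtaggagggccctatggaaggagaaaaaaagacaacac
HOXA13: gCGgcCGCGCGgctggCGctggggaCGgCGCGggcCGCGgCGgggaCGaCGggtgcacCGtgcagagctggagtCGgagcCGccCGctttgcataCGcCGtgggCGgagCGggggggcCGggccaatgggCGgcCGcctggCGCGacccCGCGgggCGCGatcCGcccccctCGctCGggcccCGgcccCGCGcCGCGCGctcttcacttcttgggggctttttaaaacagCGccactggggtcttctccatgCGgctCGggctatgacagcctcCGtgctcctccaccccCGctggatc
These windows hold 24 CG dinucleotides for HOXD13, 34 for HOXD8, 4 for HOXD4 and 44 for HOXA13. Of the 4, the HOXD13 window holds TATAA and the others do not. HOXD4 has fewer CG dinucleotides than the median window, and HOXA13 has more of them than 95.8% of all windows.

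The libraries held 15194678 to 18748009 counts in SKOV3 and 18160558 to 24026993 in OVCAR3, and HOX genes took between 0.0354% and 0.0807% of them. RSF1 itself, the check of the labels, averaged 719 ± 77.0 CPM in RSF1 cells and 488 ± 25.6 CPM in RSF1delUAB cells, against 44.0 ± 3.08 CPM in control cells (SD, n = 3 each). In OVCAR3 it averaged 687 ± 142 CPM with the UAB peptide and 636 ± 101 CPM in the scramble control (SD, n = 2 each). RSF1 counts per gene set both constructs apart from control but do not show which construct a library carried. They do not check the OVCAR3 labels, where RSF1 did not pass (edgeR adjusted p = 0.724). CPM (read counts scaled to library size with TMM factors) serve to compare 1 gene across libraries. TPM, which also divide by gene length, serve to compare genes. A gene is called higher or lower at an adjusted p under 0.05 in edgeR's quasi-likelihood test with Benjamini-Hochberg adjustment over all 16735 genes tested in SKOV3 or 18359 in OVCAR3. Of the 39 HOX genes, 23 passed the filter on low counts in SKOV3 and 30 in OVCAR3, and 4 passed in neither line. RSF1 replicate 1 stood apart from the other libraries of its group, at a chi-square over genes, divided by its degrees of freedom, of 14.2 and 16.3 against them, while the other pairs within SKOV3 groups lay between 2.28 and 3.91. The pair of UAB peptide libraries was at 12.9 and that of the scramble control at 15 on the same measure. Without RSF1 replicate 1 the HOX calls described below were 9 higher and 4 lower against control, and 2 higher and 10 lower against RSF1delUAB.

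Markers of other cell types moved along with the SKOV3 groups. The 10 fibroblast markers summed to 257 to 265 CPM per library in RSF1 cells and 394 to 398 CPM in RSF1delUAB cells, against 20.5 to 22.4 CPM in control cells. Of the 8 tested, 8 were higher with RSF1 and 7 with RSF1delUAB. Of their defining genes, COL1A1 averaged 18.9 ± 3.60, 17.5 ± 0.84 and 3.19 ± 0.37 CPM (SD, n = 3) in RSF1, RSF1delUAB and control cells. It thus stood above control with both constructs, while COL3A1 had 1, 9 and 2 counts in all. PDGFRB, a further marker of the list, stood at 0 in RSF1delUAB and control cells. The 10 epithelial markers summed to 3838 to 4413 CPM with RSF1, 8711 to 9245 CPM with RSF1delUAB and 9227 to 9971 CPM in control cells. Of the 9 tested, 4 were higher and 2 lower with either construct. Their median log2 fold change was 0.34 (RSF1) and 0.30 (RSF1delUAB), so that the sum and the median differ in sign. A single marker made up most of the sum in each SKOV3 group and had its lowest mean with RSF1. PAX8, a defining gene of this tissue, was present in every library at 274 CPM or more but differed between the SKOV3 groups. It averaged 383 ± 24.7 CPM with RSF1, 280 ± 7.63 CPM with RSF1delUAB and 506 ± 11.4 CPM in control cells (SD, n = 3 each). The other defining gene of this list ran in the opposite order, lowest in control cells and highest with RSF1delUAB. In OVCAR3 the fibroblast sum was 137 to 155 CPM with the UAB peptide and 169 to 194 CPM in the scramble control. The immune sum in SKOV3 was 2.48 to 2.95 CPM with RSF1, 2.02 to 2.25 CPM with RSF1delUAB and 0.84 to 0.929 CPM in control cells, with 2 of 2 tested markers higher with each construct. The endothelial sum was 0.699 to 1.01 CPM, 0.678 to 0.924 CPM and 5.36 to 7.63 CPM in the same groups, with 2 of 2 lower with each construct. Most of the 8 immune and 5 endothelial markers were too low to test in SKOV3. The defining immune gene PTPRC had 14, 3 and 3 counts in all in RSF1, RSF1delUAB and control cells. Of the defining endothelial genes, PECAM1 had 5, 12 and 107 counts in these groups, while CDH5 had 2, 1 and 0. In OVCAR3 the immune sum was 7.06 to 8.46 CPM with the UAB peptide and 12.7 to 14.3 CPM in the scramble control, and the endothelial sum 16.6 to 22.7 CPM and 11.7 to 14.3 CPM in the same order. The part of these shifts in the HOX results was not tested, and in bulk RNA fewer cells of a type and less RNA per cell cannot be told apart.

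The lines used different clusters. In SKOV3 the HOXB genes made up 88.7% of the summed HOX TPM with RSF1, 89.6% with RSF1delUAB and 90.5% with the control vector, and every HOXB gene but HOXB1 stood above 5 TPM in each group. OVCAR3 drew instead on HOXA, at 67.9% of the summed HOX TPM with the UAB peptide and 59.6% in the scramble control. HOXC was nearly silent in SKOV3, at 4.87 ± 1.46, 0.291 ± 0.091 and 3.35 ± 1.04 summed TPM in RSF1, RSF1delUAB and control cells (SD, n = 3 each), while OVCAR3 expressed 7 of its 9 genes at 0.5 TPM or more in both groups. With that threshold, 24 HOX genes were detected with RSF1, 24 with RSF1delUAB and 23 with the control vector, and 32 with the UAB peptide and 30 in the scramble control. Line, vector, treatment and preparation differ together between SKOV3 and OVCAR3 and cannot be told apart, so the lines are set side by side with no test.

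**Figure D1:**
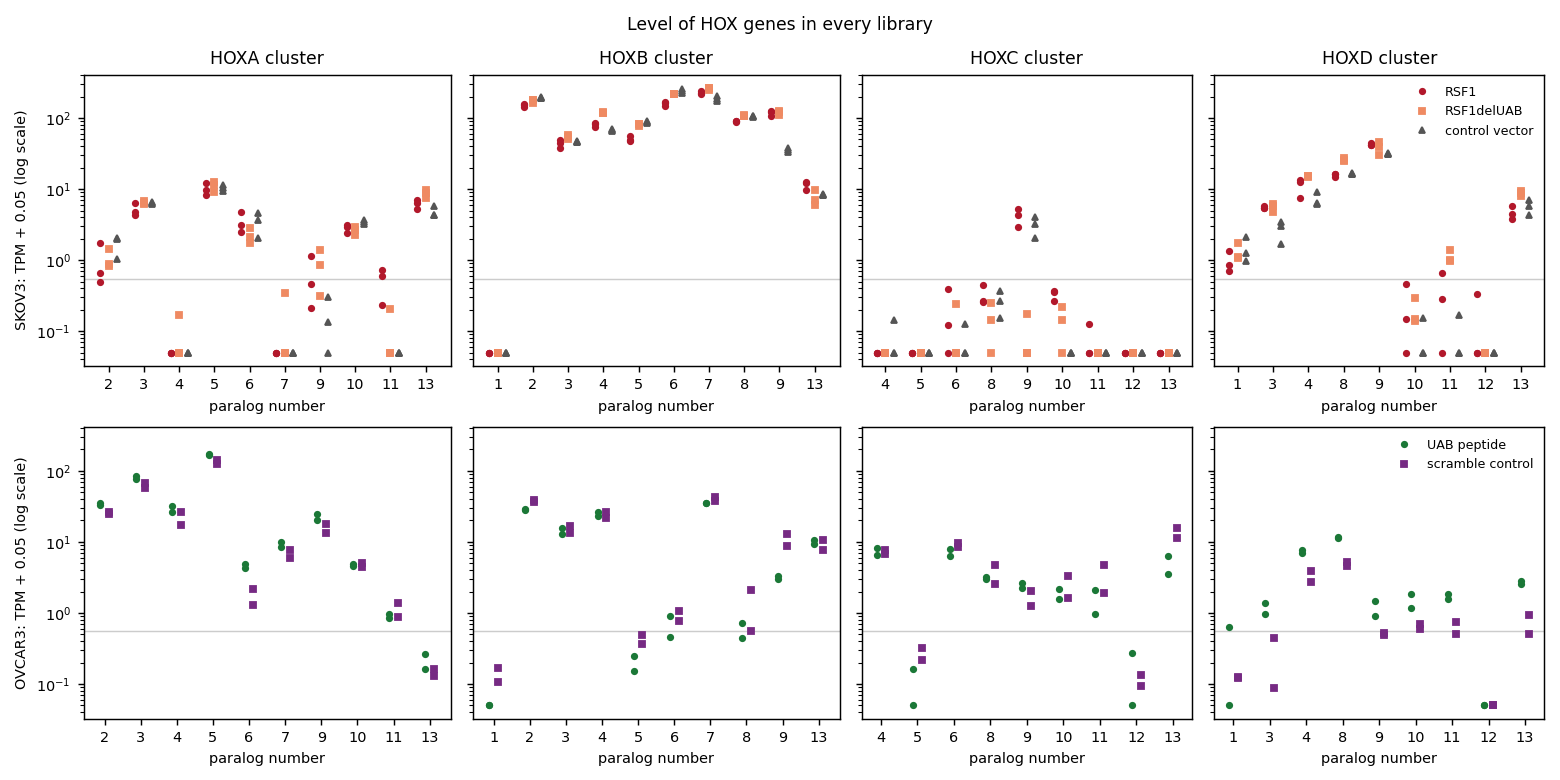
Level of 38 HOX genes in every library, as TPM + 0.05 on a log axis, in paralog order along each cluster (SKOV3 above, OVCAR3 below, 1 point per library, grey line at the detection threshold of 0.5 TPM). In SKOV3 the HOXB genes from 2 to 9 sit highest and HOXC lies near the floor but for HOXC9, while in OVCAR3 HOXA5 and HOXA3 sit highest.

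Within SKOV3 the order of levels began with HOXB7, at 229 ± 12.3 TPM with RSF1 and 260 ± 8.67 TPM with RSF1delUAB (SD, n = 3 each). HOXB6 followed at 159 ± 10.6 and 218 ± 1.92 TPM in the same groups. Control cells had HOXB6 on top at 242 ± 14.9 TPM, with HOXB2 at 193 ± 4.94 TPM and HOXB7 at 188 ± 15.4 TPM, a pair of neighbours whose libraries overlapped. HOXB6 and HOXB2 overlapped likewise with RSF1, and HOXB9 and HOXB4 with RSF1delUAB. Outside HOXB the highest gene was HOXD9, a paralog with roles in limb and spinal patterning, at 42.5 ± 1.21 TPM with RSF1, 38.6 ± 7.77 TPM with RSF1delUAB and 31.6 ± 0.64 TPM in control cells. In OVCAR3 the order began with HOXA5 at 168 ± 2.34 TPM with the UAB peptide and 133 ± 10.4 TPM in the scramble control (SD, n = 2 each), and HOXA3 came next at 79.7 ± 5.20 and 62.5 ± 8.44 TPM. HOXB7 was the third gene in both OVCAR3 groups and overlapped with the one after it in each. No HOXD gene reached a group mean of 5 TPM in the scramble control, and 2 did with the UAB peptide.

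With RSF1 overexpression the HOXB genes of SKOV3 differed from the control vector gene by gene, in both directions. Whether the construct or another difference between these cells lay behind it was not tested. Of the 23 HOX genes tested against the control vector, 8 were higher and 4 lower. Over all genes tested, 34.3% were called higher and 32.9% lower (67.3% in either direction), and the 12 of 23 HOX genes (52.2%) are a smaller share than that. Their median log2 fold change was -0.04, beside 0.02 over all genes. By cluster the calls were 4 higher and 4 lower of 9 in HOXB, 3 higher of 6 in HOXD, 1 higher of 7 in HOXA and 0 of 1 in HOXC.

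HOXB9, which in the mouse patterns the rib-bearing segments, changed most among the HOX genes called in that comparison. It had 73.9, 79.6 and 80.2 CPM in RSF1 libraries, 75.3, 82.1 and 83.5 CPM in RSF1delUAB libraries and 22.2, 23.2 and 24.9 CPM in control libraries. With RSF1 every library lay above every control library, 3.32-fold on the fitted scale (log2 fold change 1.73 ± 0.08 SE, edgeR adjusted p = 1.6e-13). The level with RSF1delUAB was also above all controls (log2 fold change 1.78 ± 0.08 SE, edgeR adjusted p = 9.79e-14), and the 2 constructs overlapped with each other (log2 fold change -0.04 ± 0.07 SE, edgeR adjusted p = 0.67). The exons of HOXB9 share no bases with annotated exons of another gene on either strand. HOXB9 lies within the span of HOXB7 on the same strand, and reads of unspliced or unannotated RNA were not told apart.

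HOXB5, HOXB6, HOXB2 and HOXB8 fell with RSF1. HOXB5, which acts in the development of the gut's nervous system, had 27.8, 22.1 and 23.2 CPM in RSF1 libraries, 37.5, 39 and 38.6 CPM in RSF1delUAB libraries and 43.7, 40.7 and 42.3 CPM in control libraries. Its RSF1 libraries lay below all the others (log2 fold change -0.79 ± 0.09 SE, edgeR adjusted p = 1.36e-07). HOXB6 had 103.3, 105.6 and 109.3 CPM in RSF1 libraries, 150.2, 146.5 and 143.5 CPM in RSF1delUAB libraries and 160.7, 171.3 and 151.1 CPM in control libraries. Here too the RSF1 libraries lay below all the others (log2 fold change -0.60 ± 0.07 SE, edgeR adjusted p = 9.27e-08), and RSF1delUAB did not pass the test against control for HOXB5 (log2 fold change -0.14 ± 0.09 SE, edgeR adjusted p = 0.159) or HOXB6 (log2 fold change -0.13 ± 0.06 SE, edgeR adjusted p = 0.076). For both genes every RSF1delUAB library still lay below every control library. HOXB2, which acts in the hindbrain, had 105.6, 86.6 and 93.7 CPM in RSF1 libraries, 117.3, 102.6 and 111.2 CPM in RSF1delUAB libraries and 124.5, 119.6 and 120.3 CPM in control libraries. It was lower with RSF1 by a smaller step (log2 fold change -0.35 ± 0.08 SE, edgeR adjusted p = 0.000433), with every RSF1 library below every control library. The RSF1delUAB libraries also lay below all controls for HOXB2, without passing the test (log2 fold change -0.14 ± 0.08 SE, edgeR adjusted p = 0.115). HOXB8, known for its hold on blood progenitors, had 58.6, 54.8 and 53.6 CPM in RSF1 libraries, 66.6, 65.5 and 67.5 CPM in RSF1delUAB libraries and 64.5, 64.8 and 65.6 CPM in control libraries. Its RSF1 libraries were lower than the controls without overlap (log2 fold change -0.22 ± 0.07 SE, edgeR adjusted p = 0.00714).

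Their neighbours HOXB4 and HOXB7 went the other way. HOXB4, known for expanding blood stem cells, had 44.9, 37 and 43.2 CPM in RSF1 libraries, 61.9, 60.7 and 62.6 CPM in RSF1delUAB libraries and 33.2, 36.3 and 35.3 CPM in control libraries. It was higher with RSF1 (log2 fold change 0.26 ± 0.08 SE, edgeR adjusted p = 0.0105), and higher again with RSF1delUAB (log2 fold change 0.82 ± 0.08 SE, edgeR adjusted p = 2.19e-08). HOXB7 had 100, 85 and 84.1 CPM in RSF1 libraries, 100, 103 and 103.7 CPM in RSF1delUAB libraries and 72.3, 67.6 and 79.3 CPM in control libraries. Both constructs were above control, RSF1 (log2 fold change 0.30 ± 0.08 SE, edgeR adjusted p = 0.00269) and RSF1delUAB (log2 fold change 0.48 ± 0.08 SE, edgeR adjusted p = 1.85e-05), with no overlap. HOXB3, a hindbrain gene, had 77.2, 91.1 and 83.2 CPM in RSF1 libraries, 104.4, 110.2 and 97.3 CPM in RSF1delUAB libraries and 87.7, 87.3 and 89.7 CPM in control libraries. It did not pass the test with RSF1 (log2 fold change -0.07 ± 0.07 SE, edgeR adjusted p = 0.388), whereas RSF1delUAB was higher (log2 fold change 0.24 ± 0.07 SE, edgeR adjusted p = 0.00771). The median of all tested genes on the same chromosome arm, 17q, was 0.24 with RSF1delUAB, equal to the HOXB3 value, and 0.07 with RSF1. HOXB13, a partner of the androgen receptor in the prostate, lies apart at the far end of the cluster and had 7.89, 9.34 and 9.37 CPM in RSF1 libraries, 5.58, 7.68 and 4.62 CPM in RSF1delUAB libraries and 6.42, 6.7 and 6.33 CPM in control libraries. It was higher with RSF1 against control (log2 fold change 0.45 ± 0.17 SE, edgeR adjusted p = 0.0214), and RSF1delUAB did not pass (log2 fold change -0.12 ± 0.17 SE, edgeR adjusted p = 0.554).

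In HOXD, 3 genes were called higher with both constructs. HOXD3 had 5.8, 4.95 and 5.03 CPM in RSF1 libraries, 5.96, 4.51 and 5.48 CPM in RSF1delUAB libraries and 3.24, 2.85 and 1.55 CPM in control libraries. Both constructs lay above all control libraries, RSF1 (log2 fold change 1.05 ± 0.23 SE, edgeR adjusted p = 0.00042) and RSF1delUAB (log2 fold change 1.06 ± 0.22 SE, edgeR adjusted p = 0.000323). HOXD4, a hindbrain gene, had 2.28, 3.56 and 3.83 CPM in RSF1 libraries, 4.52, 4.33 and 4.5 CPM in RSF1delUAB libraries and 1.85, 1.79 and 2.65 CPM in control libraries. With RSF1delUAB all libraries lay above control (log2 fold change 1.08 ± 0.23 SE, edgeR adjusted p = 0.000356), while with RSF1 the call came with overlapping libraries (log2 fold change 0.62 ± 0.24 SE, edgeR adjusted p = 0.0299). HOXD9 had 22.2, 19.5 and 19.7 CPM in RSF1 libraries, 19.2, 14.7 and 22 CPM in RSF1delUAB libraries and 15.1, 14.9 and 15.4 CPM in control libraries. Every RSF1 library was above every control library (log2 fold change 0.44 ± 0.12 SE, edgeR adjusted p = 0.00434), and RSF1delUAB was called higher with overlap (log2 fold change 0.30 ± 0.12 SE, edgeR adjusted p = 0.0394).

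HOXD8, HOXD13 and HOXA13 were also called higher with RSF1delUAB. HOXD8 had 11.5, 9.59 and 10.9 CPM in RSF1 libraries, 17.7, 16.8 and 18.1 CPM in RSF1delUAB libraries and 11.3, 11.1 and 11 CPM in control libraries. RSF1delUAB stood above all the other libraries (log2 fold change 0.65 ± 0.11 SE, edgeR adjusted p = 2.24e-05), and RSF1 did not pass against control (log2 fold change -0.06 ± 0.11 SE, edgeR adjusted p = 0.636). HOXD13, which patterns the digits and the lower genital tract, had 2.93, 3.43 and 2.26 CPM in RSF1 libraries, 5.9, 4.97 and 5.36 CPM in RSF1delUAB libraries and 3.51, 4.31 and 2.65 CPM in control libraries. RSF1delUAB was higher than control (log2 fold change 0.63 ± 0.20 SE, edgeR adjusted p = 0.00998) and RSF1 did not pass (log2 fold change -0.28 ± 0.22 SE, edgeR adjusted p = 0.282). HOXA13, which patterns the same structures, had 7.24, 8.77 and 8.05 CPM in RSF1 libraries, 9.84, 12.7 and 11.5 CPM in RSF1delUAB libraries and 7.34, 5.64 and 5.56 CPM in control libraries. It was higher with RSF1 with overlapping libraries (log2 fold change 0.38 ± 0.16 SE, edgeR adjusted p = 0.0392) and with RSF1delUAB without overlap (log2 fold change 0.87 ± 0.15 SE, edgeR adjusted p = 3.37e-05).

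**Figure D2:**
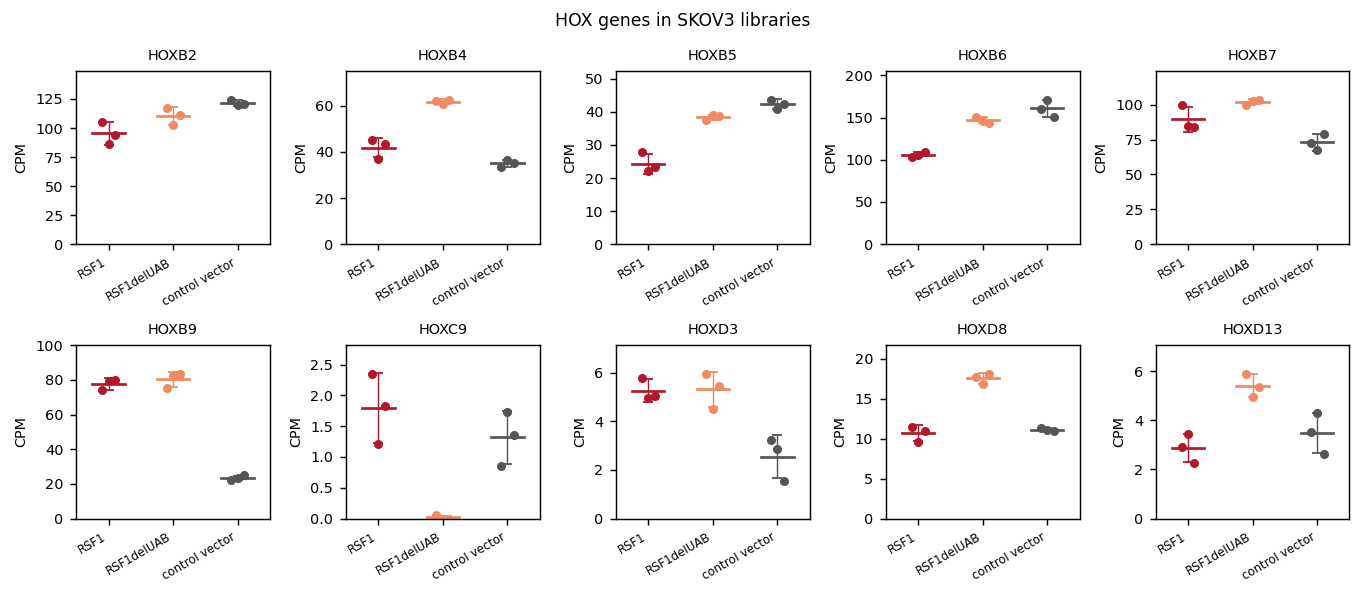
TMM-scaled CPM of 10 HOX genes in the 9 SKOV3 libraries (points), with group means (bars) and SD (whiskers), n = 3 per group, linear axes from 0. HOXB9 is high with both constructs, HOXB5 and HOXB6 are lowest with RSF1, and HOXB4, HOXD8 and HOXD13 are highest with RSF1delUAB.

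RSF1delUAB against the control vector gave 10 HOX genes higher and 1 lower of 23, where 34.5% of all tested genes were called higher and 32.1% lower (66.6% in either direction). The HOX share called was 47.8%, with a median log2 fold change of 0.05 beside 0.02 over all genes. HOXD contributed 5 of 6 tested and HOXB 4 of 9. Since both constructs were compared with the same control libraries, likeness between these 2 comparisons is not independent evidence.

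The gene called lower was HOXC9, which in the mouse sets thoracic motor neurons apart. It had 2.35, 1.21 and 1.82 CPM in RSF1 libraries, 0.0532, 0 and 0 CPM in RSF1delUAB libraries and 0.86, 1.73 and 1.36 CPM in control libraries. RSF1delUAB libraries held 1 count in all, against 60 in control libraries and 84 in RSF1 libraries. Control exceeded RSF1delUAB by a ratio of 68.8 (95% counting interval 11.9 to 2762), and RSF1 exceeded RSF1delUAB by 93.6 (16.3 to 3740). The test called RSF1delUAB lower than control (edgeR adjusted p = 1.86e-06) and RSF1 higher than RSF1delUAB (edgeR adjusted p = 1.15e-06), with no overlap in either case. RSF1 and control overlapped (log2 fold change 0.44 ± 0.37 SE, edgeR adjusted p = 0.296). These intervals, and the limits given below for counts of 0, cover counting error only.

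Set directly against RSF1delUAB, RSF1 had 2 HOX genes higher and 9 lower of 23, where 18.5% of all tested genes were called higher and 20.2% lower (38.6% in either direction). In share, 39.1% of the tested HOX genes were lower, with a median log2 fold change of -0.21 beside 0.00 over all genes. HOXB held 6 of the lower calls, which were HOXB2 (log2 fold change -0.21 ± 0.08 SE, edgeR adjusted p = 0.0329), HOXB3 (log2 fold change -0.31 ± 0.07 SE, edgeR adjusted p = 0.00205), HOXB4 (log2 fold change -0.57 ± 0.08 SE, edgeR adjusted p = 1.03e-05), HOXB5 (log2 fold change -0.65 ± 0.09 SE, edgeR adjusted p = 6.19e-06), HOXB6 (log2 fold change -0.47 ± 0.07 SE, edgeR adjusted p = 9.4e-06) and HOXB8 (log2 fold change -0.26 ± 0.07 SE, edgeR adjusted p = 0.00496). HOXB5 had the lowest value of the cluster. HOXB7, between HOXB6 and HOXB8, did not pass (log2 fold change -0.19 ± 0.08 SE, edgeR adjusted p = 0.0624). Without RSF1 replicate 1, its highest RSF1 library, HOXB7 was called lower (log2 fold change -0.28, edgeR adjusted p = 0.000354), and limma-voom called it too (0.0498). At the far end HOXB13 was higher with RSF1 (log2 fold change 0.57 ± 0.16 SE, edgeR adjusted p = 0.00921).

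The median of all tested genes on 17q was -0.22 in the same comparison. After subtraction of that median, HOXB2 stood at 0.01, HOXB3 at -0.09, HOXB4 at -0.34, HOXB5 at -0.43, HOXB6 at -0.25, HOXB7 at 0.03 and HOXB8 at -0.04. Among the 12 tested genes within 500 kb outside the cluster, 3 were called higher and 1 lower, with a median of -0.01. Outside HOXB, RSF1 was below RSF1delUAB for HOXD8 (log2 fold change -0.72 ± 0.11 SE, edgeR adjusted p = 2.28e-05), HOXD13 (log2 fold change -0.91 ± 0.21 SE, edgeR adjusted p = 0.0016) and HOXA13 (log2 fold change -0.49 ± 0.14 SE, edgeR adjusted p = 0.00956), none of which overlapped between the groups. HOXD3 (log2 fold change -0.02 ± 0.20 SE, edgeR adjusted p = 0.959) and HOXD9 (log2 fold change 0.13 ± 0.12 SE, edgeR adjusted p = 0.409) did not pass.

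**Figure D3:**
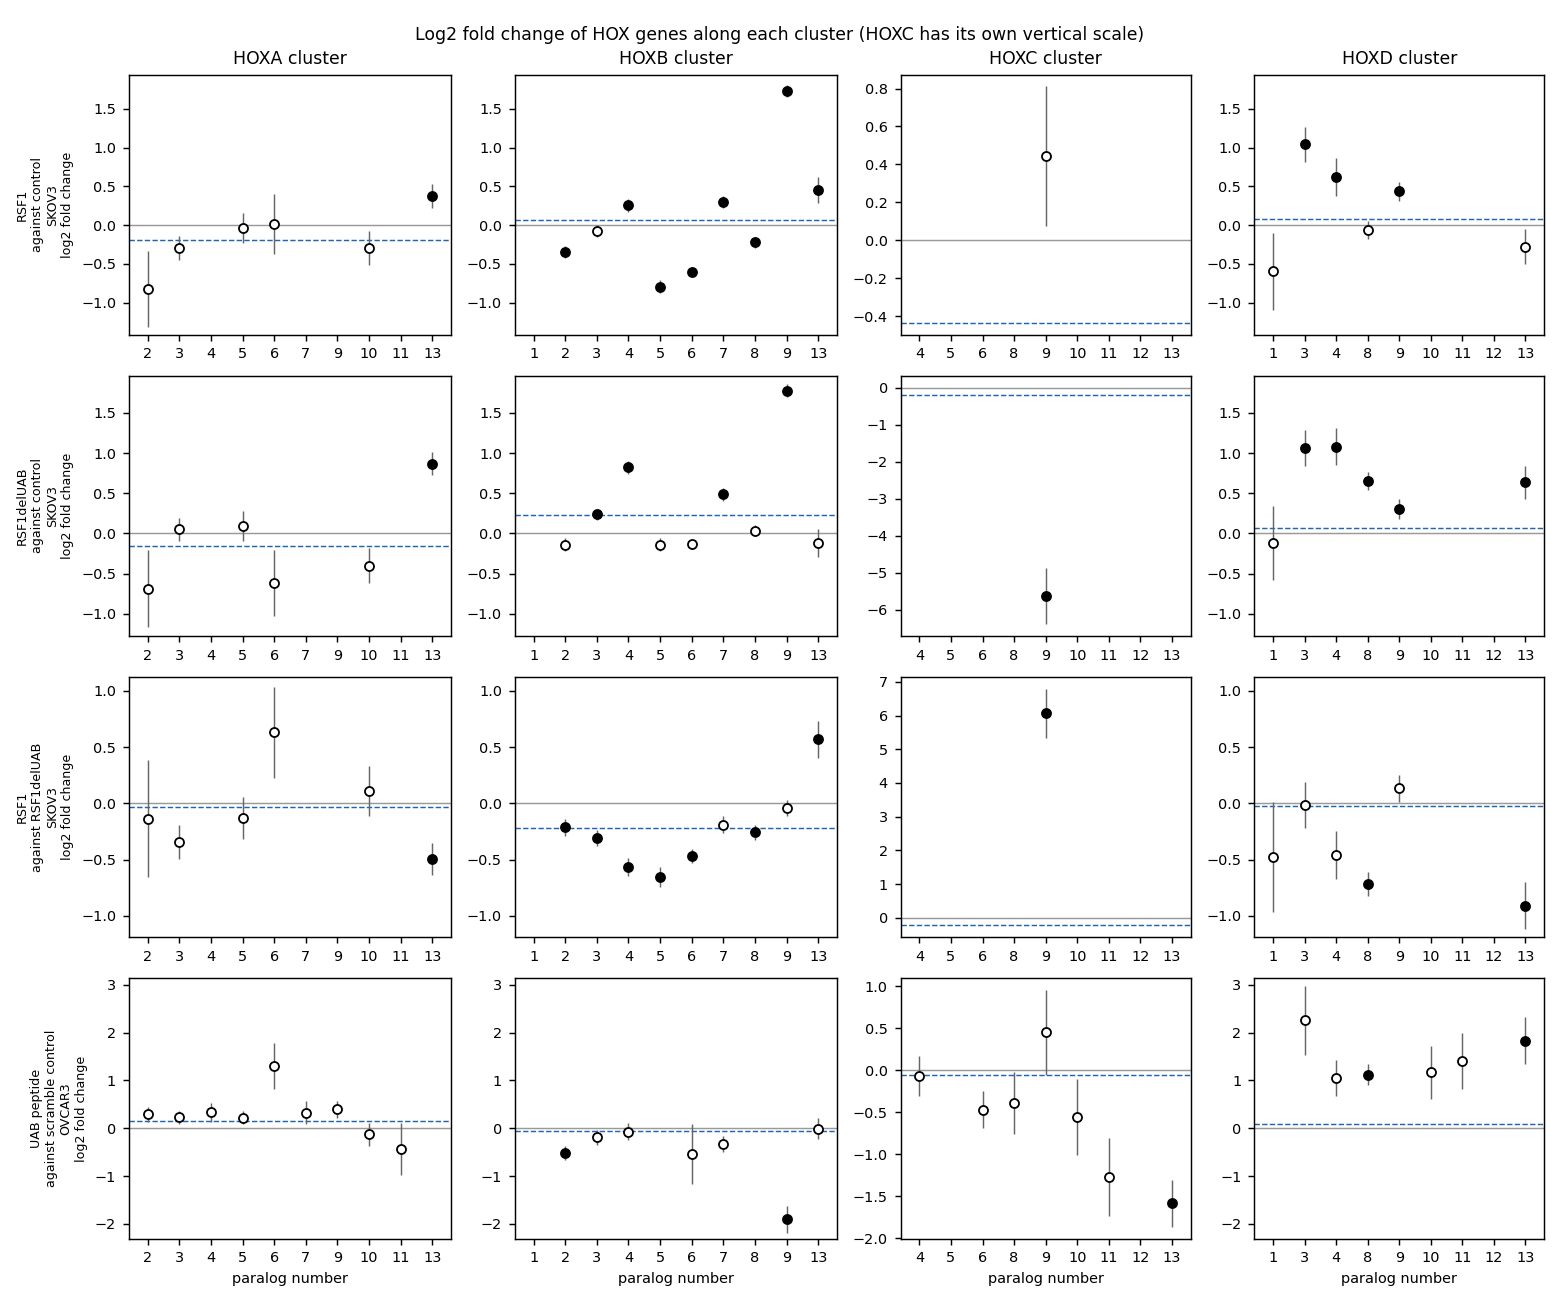
Log2 fold change with SE for tested HOX genes in paralog order along each cluster, in the 4 comparisons (filled points, adjusted p under 0.05 in edgeR; open points, not passed; blue dashes, median of all tested genes on the same chromosome arm; HOXC has its own vertical scale). In the third row HOXB2 to HOXB8 lie below 0 with HOXB5 lowest, and in the fourth row the HOXD genes lie above 0 and HOXB9 and HOXC13 lowest.

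Some of these calls rest on single libraries. The count of 8 higher with RSF1 against control became 5 without RSF1 replicate 2, without RSF1 replicate 3 or without control replicate 1. In that comparison HOXA13 lost the call without RSF1 replicate 2 or 3 or control replicate 2 or 3 (adjusted p up to 0.131), HOXB13 without RSF1 replicate 2 or 3 or control replicate 1 or 3 (up to 0.0576), HOXD4 without RSF1 replicate 2 or 3 or control replicate 1 or 2 (up to 0.126), and HOXB4 without control replicate 1 (0.06). For RSF1delUAB against control, HOXD9 lost it without RSF1delUAB replicate 1 or 3 or any 1 control library (up to 0.253) and in limma-voom (0.0644), and its log2 fold change lay between 0.17 without RSF1delUAB replicate 3 and 0.45 without replicate 2. HOXD13 lost it without control replicate 3 (0.0657), and without that library HOXB6 was called lower (0.0452), which made 2 lower genes. For RSF1 against RSF1delUAB, HOXB2 lost it without RSF1 replicate 2 or 3 or RSF1delUAB replicate 1 or 3 (up to 0.185, with a log2 fold change of -0.14 without RSF1 replicate 2), HOXA13 without RSF1delUAB replicate 2 (0.0582) and HOXB13 without RSF1delUAB replicate 3 (0.0602), which left 1 gene higher. HOXB9, HOXB5, HOXB6, HOXD3 and HOXC9 kept each of their calls when any 1 library was left out, all in edgeR.

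Counts of 16 HOX genes were too low to test in SKOV3. HOXB1, HOXC5, HOXC12 and HOXC13 had 0 counts in all 9 libraries, which allows up to 0.0638 CPM over the RSF1 libraries, 0.0573 CPM over the RSF1delUAB libraries and 0.0657 CPM over the control libraries. HOXD11 had 31 counts with RSF1delUAB and 1 with control, a ratio of 27.0 (95% counting interval 4.51 to 1101.9), and 7 with RSF1. HOXA11, which patterns the uterus, had 15 counts with RSF1 and 2 with RSF1delUAB, a ratio of 8.36 (1.94 to 75.3), and 0 with control. Against the limit of 3 counts over the control group, HOXA11 was at least 4.86-fold higher with RSF1 and HOXC10, with 8 counts against 0, at least 2.59-fold higher. The antisense gene HOXA11-AS overlaps 27.2% of the HOXA11 exon bases on the other strand. It had 17, 8 and 0 counts with RSF1, RSF1delUAB and control. The strand setting of the counting is not given, so reads of HOXA11 and HOXA11-AS cannot be told apart there. HOXA9 had 0.13, 0.826 and 0.314 CPM in RSF1 libraries, 0.213, 1.04 and 0.616 CPM in RSF1delUAB libraries and 0, 0.0664 and 0.194 CPM in control libraries, and its RSF1 and control libraries overlapped. The other members not tested stayed at or below 0.326 CPM in each SKOV3 library, among them HOXA4, HOXA7, HOXC4 and HOXC6, which OVCAR3 expressed.

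In the HOXA cluster HOXA13 alone passed a test in SKOV3. HOXA2, which acts in the second branchial arch, had 0.391, 0.254 and 1.01 CPM in RSF1 libraries, 0.851, 0.462 and 0.493 CPM in RSF1delUAB libraries and 0.596, 1.19 and 1.16 CPM in control libraries, and these overlapped throughout. HOXA3, needed for the thymus in the mouse, had 5.02, 6.67 and 5.22 CPM in RSF1 libraries, 7.71, 6.87 and 6.9 CPM in RSF1delUAB libraries and 7.08, 6.9 and 6.78 CPM in control libraries. Its RSF1 libraries lay below the controls without passing the test (log2 fold change -0.30 ± 0.15 SE, edgeR adjusted p = 0.0944), and without RSF1 replicate 2 it was called lower (0.0325). HOXA5, needed for the airways in the mouse, had 4.5, 5.21 and 3.52 CPM in RSF1 libraries, 4.04, 5.49 and 4.99 CPM in RSF1delUAB libraries and 4.96, 4.11 and 4.52 CPM in control libraries, with overlap in every comparison. HOXA6 and HOXA10 ranged from 0.554 to 3.49 CPM.

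Most HOX genes of OVCAR3 did not pass the test with the UAB peptide, and the clusters leaned in different directions. Against the scramble control, 2 HOX genes were higher and 3 lower of 30 tested (16.7%), where 5.45% of all tested genes were called higher and 5.46% lower (10.9% in either direction). The median log2 fold change of the HOX genes was 0.02, beside 0.01 over all genes. HOXD had both higher calls, HOXB had 2 of the lower calls and HOXC the other.

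All 8 HOXD genes with counts had a higher mean with the UAB peptide, and in 7 of them the groups did not overlap. Over all genes with counts, 50.2% had a higher mean with the UAB peptide, and in 20.3% it was higher without overlap. HOXD8 had 8.04 and 8.95 CPM in UAB peptide libraries, against 3.76 and 4.02 CPM in scramble control libraries (log2 fold change 1.12 ± 0.22 SE, edgeR adjusted p = 0.00454). HOXD13 had 1.81 and 1.75 CPM in UAB peptide libraries, against 0.342 and 0.648 CPM in scramble control libraries (log2 fold change 1.84 ± 0.50 SE, edgeR adjusted p = 0.0293). Both peptide libraries were above both controls for each gene, at 2.18-fold for HOXD8 and 3.57-fold for HOXD13 on the fitted scale. HOXD3 had 1.32 and 0.982 CPM in UAB peptide libraries, against 0.0427 and 0.432 CPM in scramble control libraries (log2 fold change 2.26 ± 0.73 SE, edgeR adjusted p = 0.0609). HOXD4 had 2.35 and 2.29 CPM in UAB peptide libraries, against 0.94 and 1.3 CPM in scramble control libraries (log2 fold change 1.05 ± 0.38 SE, edgeR adjusted p = 0.0972). HOXD3 and HOXD4 were apart between the groups but did not pass the test. HOXD3 had a log2 fold change between 1.41 and 4.57 when 1 library was left out, and it was called higher without UAB peptide replicate 2 (edgeR adjusted p = 0.0355), without scramble control replicate 2 (0.00599), with no filter on low counts (0.00785) and in limma-voom (0.0407). HOXD9 had 0.441 and 0.764 CPM in UAB peptide libraries, against 0.256 and 0.259 CPM in scramble control libraries and was not tested. HOXD10 and HOXD11, genes of the limb and lower body, had fitted log2 fold changes of 1.17 and 1.41 and did not pass. HOXD3, HOXD10, HOXD11 and HOXD13 met the filter on low counts through their UAB peptide libraries, where they were higher. In the scramble control HOXD3 had 1 and 10 counts and HOXD11 had 7 and 10. The count of higher means above was taken without that filter. Summed over the cluster, HOXD stood at 27.1 ± 1.27 TPM with the peptide and 10.7 ± 2.00 TPM in the scramble control (SD, n = 2 each), with no overlap.

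HOXB ran the other way: 0 of 10 genes had a higher mean with the peptide, beside 50.2% of all genes with counts. In 5 of them the peptide was lower without overlap, beside 20.1% of all genes with counts. Among these 5, HOXB1 (0 counts against 3) and HOXB5 (3 against 10) were too low to test. HOXB9 had 2.06 and 2.46 CPM in UAB peptide libraries, against 10.3 and 6.65 CPM in scramble control libraries. Both peptide libraries lay below both controls, 3.75-fold lower on the fitted scale (log2 fold change -1.91 ± 0.28 SE, edgeR adjusted p = 0.000495). HOXB2 had 18.5 and 20.7 CPM in UAB peptide libraries, against 28.1 and 28.1 CPM in scramble control libraries (log2 fold change -0.52 ± 0.15 SE, edgeR adjusted p = 0.0381). It was lower by a smaller step, also without overlap. HOXB7 had 14.4 and 15.5 CPM in UAB peptide libraries, against 20.3 and 17.2 CPM in scramble control libraries (log2 fold change -0.33 ± 0.17 SE, edgeR adjusted p = 0.236). HOXB3 had 31.5 and 28 CPM in UAB peptide libraries, against 30.3 and 37.3 CPM in scramble control libraries, and HOXB4 had 12.6 and 15.3 CPM in UAB peptide libraries, against 13.6 and 15.8 CPM in scramble control libraries. Of these, HOXB7 was apart and HOXB3 and HOXB4 overlapped, and none of the 3 passed. HOXB13 had 7.74 and 9.28 CPM in UAB peptide libraries, against 10.1 and 7 CPM in scramble control libraries, with overlap. HOXB5 had 0.098 and 0.0546 CPM in UAB peptide libraries, against 0.256 and 0.173 CPM in scramble control libraries, HOXB6 had 0.294 and 0.655 CPM in UAB peptide libraries, against 0.812 and 0.562 CPM in scramble control libraries and HOXB8 had 0.441 and 0.273 CPM in UAB peptide libraries, against 0.385 and 1.47 CPM in scramble control libraries. These 3, among the highest HOX genes of SKOV3, were at most 1.47 CPM in OVCAR3. HOXB9 was thus called in both lines, higher with either construct in SKOV3 and lower with the UAB peptide in OVCAR3, and the difference between the lines was not tested.

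In HOXC the gene at the high-numbered end was lower with the peptide. HOXC13, a regulator of hair keratins, had 4.07 and 2.4 CPM in UAB peptide libraries, against 11.6 and 7.95 CPM in scramble control libraries (log2 fold change -1.58 ± 0.28 SE, edgeR adjusted p = 0.002). Both peptide libraries were below both controls. HOXC11 had 1.81 and 0.873 CPM in UAB peptide libraries, against 4.75 and 1.81 CPM in scramble control libraries, so that the groups met at 1.81 CPM, and it did not pass (log2 fold change -1.27 ± 0.47 SE, edgeR adjusted p = 0.0994). Its log2 fold change lay between -1.90 and -0.42 when 1 library was left out, and it was called lower without UAB peptide replicate 1 (edgeR adjusted p = 0.00243), without scramble control replicate 2 (0.000234) and with no filter on low counts (0.00647). HOXC6 had 5.83 and 8.02 CPM in UAB peptide libraries, against 10.3 and 8.81 CPM in scramble control libraries and HOXC4 had 4.9 and 6.55 CPM in UAB peptide libraries, against 6.5 and 5.49 CPM in scramble control libraries, and neither passed (log2 fold change -0.47 ± 0.22 SE, edgeR adjusted p = 0.195 for HOXC6). HOXC9, absent with RSF1delUAB in SKOV3 but for 1 count, had 0.98 and 1.26 CPM in UAB peptide libraries, against 1.03 and 0.605 CPM in scramble control libraries and overlapped.

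HOXA, the dominant cluster of OVCAR3, had no call. HOXA5 had 79.5 and 83.1 CPM in UAB peptide libraries, against 67.4 and 72.1 CPM in scramble control libraries (log2 fold change 0.22 ± 0.13 SE, edgeR adjusted p = 0.323). HOXA3 had 97.7 and 94.9 CPM in UAB peptide libraries, against 75.9 and 88.1 CPM in scramble control libraries (log2 fold change 0.23 ± 0.14 SE, edgeR adjusted p = 0.313). The peptide libraries lay above the controls for both genes, as for HOXA2 at 20.6 and 23.8 CPM in UAB peptide libraries, against 18.1 and 18.1 CPM in scramble control libraries. HOXA9, a gene of the oviduct and of leukaemia, had 20.1 and 17.8 CPM in UAB peptide libraries, against 12.6 and 16.3 CPM in scramble control libraries (log2 fold change 0.39 ± 0.18 SE, edgeR adjusted p = 0.177). HOXA4 had 15.1 and 13.3 CPM in UAB peptide libraries, against 9.19 and 13.4 CPM in scramble control libraries, and HOXA7 had 6.57 and 5.89 CPM in UAB peptide libraries, against 4.49 and 5.44 CPM in scramble control libraries. HOXA7 was apart between the groups, and HOXA4 overlapped. In all, 9 of 11 HOXA genes had a higher mean with the peptide, beside 50.2% of all genes with counts. The tested genes of their chromosome arm, 7p, had a median log2 fold change of 0.16. HOXA13 had 0.294 and 0.164 CPM in UAB peptide libraries, against 0.128 and 0.173 CPM in scramble control libraries and was not tested.

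**Figure D4:**
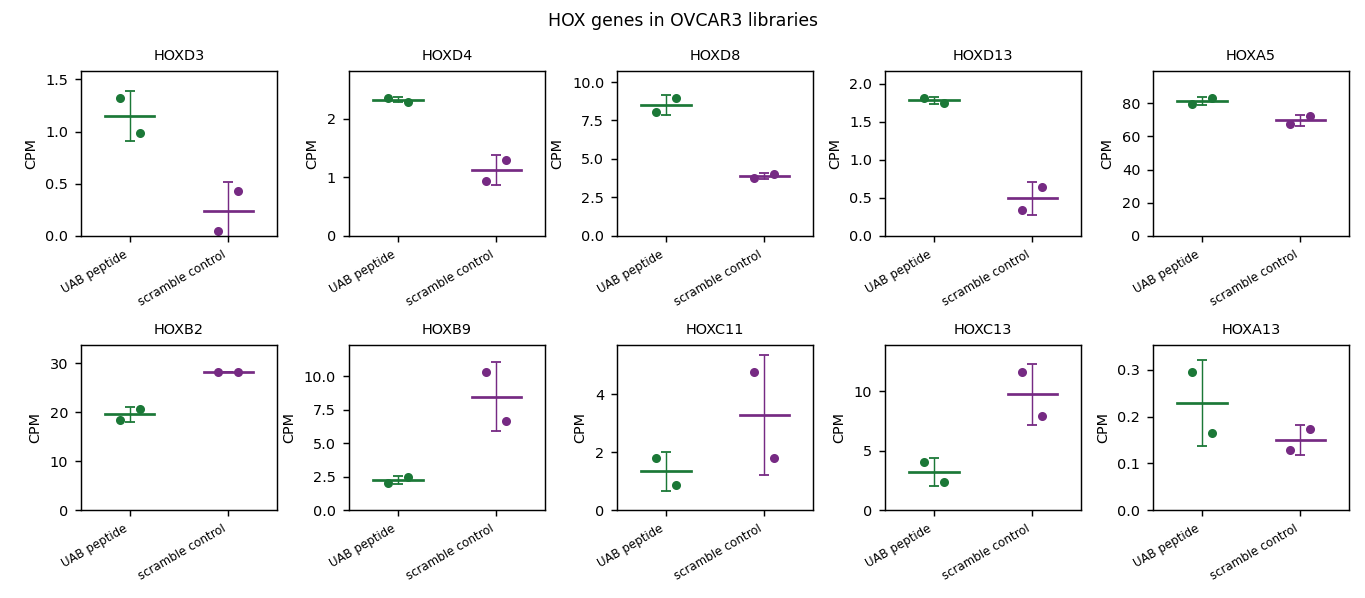
TMM-scaled CPM of 10 HOX genes in the 4 OVCAR3 libraries (points), with group means (bars) and SD (whiskers), n = 2 per group, linear axes from 0. For HOXD3, HOXD4, HOXD8 and HOXD13 the UAB peptide points lie above the scramble control, for HOXB2, HOXB9 and HOXC13 below it, and HOXA13 overlaps at under 0.3 CPM.

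Leaving out a library here leaves 1 in its group, which is then assumed to vary like the other group. HOXB9, HOXC13 and HOXD8 kept their calls when any 1 library was left out. HOXD13 lost its call without UAB peptide replicate 1 (edgeR adjusted p = 0.0652) or scramble control replicate 1 (0.183), either of which left 1 HOX gene higher, and in DESeq2 (0.0525), and HOXB2 lost it without UAB peptide replicate 1 or either scramble control library (up to 0.228) and with scaling by library totals alone (0.0558). HOXD12 had 0 counts in all 4 libraries, which allows up to 0.0775 CPM over the peptide libraries and 0.0645 CPM over the scramble control libraries.

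Genes within 500 kb of the clusters were called in OVCAR3 mainly around HOXB. There 6 of 14 tested genes were lower with the UAB peptide and 0 higher, beside 5.46% lower over all genes, with a median log2 fold change of -0.58, while the median of arm 17q was -0.05. IGF2BP1, an RNA-binding protein, averaged 9.19 ± 1.57 CPM with the peptide and 25.1 ± 3.35 CPM in the scramble control (SD, n = 2 each; edgeR adjusted p = 0.00014). The phosphatase gene PHOSPHO1 averaged 1.66 ± 0.57 and 8.33 ± 2.37 CPM in the same order (0.000226). Around HOXA 0 of 2, around HOXC 1 of 15 and around HOXD 0 of 2 were called. In SKOV3, where 67.3% of all genes were called with RSF1, the flanking genes called were 1 of 2 at HOXA, 8 of 12 at HOXB, 13 of 15 at HOXC and 1 of 2 at HOXD. Near HOXD, LNPK, a gene of the endoplasmic reticulum, was lower with both constructs, at a mean of 55.1 ± 5.07 (RSF1) and 57.4 ± 3.37 CPM (RSF1delUAB), against 82.5 ± 4.39 CPM for the control vector (SD, n = 3 each). The tested HOXD genes that were called in the same comparisons were all higher. Near HOXC, where HOXC itself was close to silent, ITGA5, an integrin subunit, fell to 129 ± 12.2 CPM (RSF1) and 137 ± 5.15 CPM (RSF1delUAB), against 422 ± 29 CPM for the control vector (SD, n = 3 each).

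Non-coding RNAs of the clusters were described but the strand setting of the counting is not given in the sources used here, so reads from a gene and an overlapping antisense partner cannot be told apart. HAGLROS, a non-coding RNA of the HOXD cluster, had 65 counts with RSF1 and 93 with RSF1delUAB, against 1 with the control vector, and was called higher with both. HOXB-AS3, which overlaps 16.3% of the exon bases of HOXB6 and 3.93% of those of HOXB5 on the other strand, averaged 24.9 ± 6.70 CPM with RSF1, 39 ± 1.43 CPM with RSF1delUAB and 40.4 ± 1.79 CPM with control (SD, n = 3 each). It was lower with RSF1 than with either, as HOXB5 and HOXB6 were. HOXB6 also shares 16.6% of its exon bases with HOXB3 on the same strand, so that counting could split or drop such reads. HOXD-AS2, which overlaps 24.4% of the exon bases of HOXD8 on the other strand, was not called in any of the 4 comparisons, at most 1.92 CPM in any group mean. In OVCAR3, 0 of 11 tested non-coding RNAs of the clusters were called in edgeR. HOTAIR, of the HOXC cluster, had 45 counts with the UAB peptide and 93 in the scramble control.

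Proteins that work with HOX factors or set their expression were followed by lists. Of 10 tested TALE cofactors, 4 were higher and 2 lower with RSF1, and 5 were higher and 1 lower with RSF1delUAB. The 6 of 10 called in each comparison are no larger a share than the 67.3% and 66.6% of all tested genes. MEIS1, a HOX partner in DNA binding, averaged 15.8 ± 1.80 CPM (RSF1) and 27.6 ± 1.27 CPM (RSF1delUAB), against 7.71 ± 1.48 CPM with control. PBX3 fell to 16.8 ± 1.05 and 14.5 ± 1.89 CPM with RSF1 and RSF1delUAB, against 36.3 ± 0.90 CPM with control (SD, n = 3 each).

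The Polycomb list had 19 genes, all tested. It also held USP16, which removes the H2A mark, so its counts are not those of Polycomb subunits alone. With RSF1 3 were higher and 11 lower (median log2 fold change -0.38), and with RSF1delUAB 4 were higher and 11 lower (-0.26). The median over all genes was 0.02 in each. Of all tested genes, 32.9% and 32.1% were called lower in these comparisons, and 67.3% and 66.6% in either direction. PCGF2, a subunit of the complex that ubiquitinates H2A, rose to 34.9 ± 3.00 CPM (RSF1) and 45.3 ± 2.24 CPM (RSF1delUAB), against 20.1 ± 0.33 CPM with control. USP16, which removes ubiquitin from H2A, fell to 43.6 ± 4.19 and 31.8 ± 1.2 CPM with RSF1 and RSF1delUAB, against 91.5 ± 3.40 CPM with control (SD, n = 3 each). With the UAB peptide 2 of 19 were higher, BMI1 at 22 ± 0.70 CPM against 14.3 ± 0.02 CPM in the scramble control and CBX2 at 81.3 ± 1.68 CPM against 56.0 ± 6.29 CPM (SD, n = 2 each).

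The trithorax and menin list, 11 genes all tested, had 3 higher and 5 lower with RSF1, 5 higher and 4 lower with RSF1delUAB and 0 called with the UAB peptide in edgeR. The 8 and 9 of 11 called in SKOV3 stand beside 67.3% and 66.6% of all tested genes. DOT1L, a histone methyltransferase linked to HOX expression in leukaemia, fell to 53.6 ± 7.01 CPM (RSF1) and 57.5 ± 3.26 CPM (RSF1delUAB), against 137 ± 5.20 CPM with control (SD, n = 3 each). Of the regulators upstream of HOX genes 8 of 16 could be tested: 2 were higher and 2 lower with RSF1, and 4 higher and 3 lower with RSF1delUAB, beside the same shares over all genes. RARG, a retinoic acid receptor, fell to 46.0 ± 1.61 and 71.9 ± 1.76 CPM with RSF1 and RSF1delUAB, against 139 ± 4.89 CPM with control. Another retinoic acid receptor of the list went the other way and was called higher with both constructs. In OVCAR3 1 was called, CYP26A1, which breaks down retinoic acid, at 0.0245 ± 0.035 CPM with the UAB peptide and 1.14 ± 0.14 CPM in the scramble control (SD, n = 2 each; edgeR adjusted p = 0.00235). Its peptide mean lay below 0.0775 CPM, the limit of 3 counts over that group. CYP26A1 thus met the filter on low counts through the scramble control libraries alone, and the size of its fall is uncertain.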

How the data were processed

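The authors deposited a table of raw counts per gene for each cell line, with gene identifiers, coordinates and lengths. Per the submitters' processing notes, FastQC, STAR 2.7.9a and Subread were used with the builds GRCh38, hg38 and GRCm38; per the labels' protocols, mRNA was taken with poly-T beads and cDNA primed with random hexamers. Neither annotation release nor strand setting is named: not given in the sources used here. The column read as scramble control replicate 2 in OVCAR3 carries an extra letter the labels do not explain, and 1 record split over 3 lines was rejoined. Of 58279 gene identifiers shared with GENCODE 29, 58219 overlapped their GRCh38 position.

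Each line was fitted on its own in edgeR 4.0.16 (R 4.3.3): filterByExpr with a minimum count of 10, TMM scaling, glmQLFit and glmQLFTest on group, prior count 0.125, and Benjamini-Hochberg adjustment over all genes tested. SE is the log2 fold change divided by the root of the F statistic. Alternatives used DESeq2 1.42.0, limma-voom (limma 3.58.1), other scalings and filters, a test against a fold of 1.5, a replicate block, the removal of each library and subtraction of the chromosome arm median. No pair of replicates agreed within sampling noise.

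The HOX genes and the other lists were chosen with earlier results of these data known. A HOX gene is given with its libraries if it was called in a comparison or averaged at least 5 TPM in a group (26 genes; 1 of them, and 1 gene of the other lists, is not reported here); of the other lists, the genes called with the smallest adjusted p may be named, and of flanking genes up to 2 per cluster. Of 19 non-coding RNAs listed, 18 were matched.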

Additional observations from a re-analysis of the deposited data

How the results depend on the processing

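Of 733 recomputed values of named HOX genes, 639 kept their direction and side of the threshold or their level, and of 39 calls 12 passed in every refit. Against a fold of 1.5, the HOX calls were 2 higher and 1 lower for RSF1 against control, 5 higher for RSF1delUAB against control, 1 higher and 0 lower for RSF1 against RSF1delUAB, and 0 higher for the UAB peptide. With a minimum count of 30, 0 were lower for RSF1delUAB against control and 1 higher for RSF1 against RSF1delUAB, because HOXC9 was then not tested. With only the 2 groups compared, 3 were lower for RSF1delUAB against control. DESeq2 called 1 higher with the UAB peptide. Without 1 library, HOX calls ranged from 5 to 9 higher for RSF1 against control, from 1 to 2 lower for RSF1delUAB against control, from 1 to 2 higher for RSF1 against RSF1delUAB, and from 1 to 3 higher with the UAB peptide. HOXB2, RSF1 against RSF1delUAB, turned to 0.0099 after subtraction of the arm median of -0.22. Causes were not tested where none is given.

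Same-numbered libraries did not deviate together (r from -0.0417 to 0.0712 in SKOV3, -0.149 in OVCAR3). A replicate block left the HOX counts as they were in SKOV3 (8 and 4, 10 and 1, 2 and 9) and gave 3 higher and 3 lower in OVCAR3, where HOXB2 was no longer called (adjusted p = 0.0988) and HOXD3 (0.0175, higher) and HOXC11 (0.0247, lower) were. Crossed pairing in OVCAR3, added after seeing the data, gave 7 HOX genes higher and 4 lower, and 2560 and 2537 of all genes, against 1001 and 1003 without it. Depth limits genes under about 10 counts per library, and the OVCAR3 fit has 2 residual degrees of freedom.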
